A study of Mus musculus with 384 samples.

Results

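The chemokine receptor genes Ccr2, Ccr8, Cxcr3, Cxcr4 and Cxcr6 were described across single T cells taken from mouse B16F10 melanoma, a transplantable skin tumour line. They were chosen by name and are 5 of the 23420 genes in the expression table. Chemokine receptors are seven-pass membrane proteins that signal through inhibitory G proteins and steer cells towards a source of chemokine. In T cells the set of receptors on the surface decides which tissues a cell can enter and where it settles within them. Ccr2 binds Ccl2 and related chemokines made at sites of inflammation, Ccr8 binds Ccl1 and is known as a receptor of regulatory T cells in tumours, and Cxcr3 binds Cxcl9 and Cxcl10, which are induced by interferon. Cxcr4 binds Cxcl12, and Cxcr6 binds Cxcl16 and marks resident and effector T cells in many tissues.

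The study profiled tumour-infiltrating T cells of C57BL/6 mice that were wild type or labelled Il27ra knockout, where Il27ra encodes a chain of the receptor for the cytokine IL-27. Each genotype had 1 plate of CD8 cells and 1 plate of CD4 cells, read here from the sample titles as wild type source WT4 and knockout source KO4, although the treatment text names only CD8 cells. Single cells were sorted into wells and amplified by Smart-seq2, a full-length method, and each of the 4 plates also held 1 population library made from many cells and 1 well without a cell. The sources used here do not give age, sort gates, tumour time, the cell number of the population libraries or the meaning of the 4 in WT4 and KO4. With 1 plate per genotype and cell type, genotype, animal and plate cannot be told apart.

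Values are FPKM, fragments scaled to transcript length and library size, so levels of different genes can be compared per length. Detection of a gene means a value of 1 FPKM or more. Of the 94 single-cell wells of each plate, those in which 1000 or more genes were detected entered the results: 72 on the wild-type CD8 plate, 77 on the CD8 plate labelled knockout, 74 on the wild-type CD4 plate and 78 on the CD4 plate labelled knockout. These kept cells had a median of 2047 to 2530.5 detected genes per plate, the population libraries 9918 to 10848 and the wells without a cell 6 to 26. Il27ra itself was seen in 51.4% of the wild-type CD8 cells and 57.1% of the CD8 cells labelled knockout, and in 36.5% and 47.4% of the CD4 cells, so its transcript did not separate the labels. Whether the knockout removes only part of the transcript was not tested, and every genotype comparison here rests on the label. Cd8a was detected in 84.7% and 81.8% of the cells of the CD8 plates and in at most 2.70% on the CD4 plates, and Cd4 in 89.2% and 91.03% of the cells of the CD4 plates and at most 1.30% on the CD8 plates. Foxp3, the transcription factor that defines regulatory T cells, was detected in 27 wild-type CD4 cells and 37 CD4 cells labelled knockout. The 3 cells among these with Foxp3 below 10 FPKM were kept in the class. All 5 receptors were listed at 0 in the wells without a cell.

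In GRCm38 the genes of 3 members lie on chromosome 9, Ccr8 at chr9:120092114-120094906, Cxcr6 at chr9:123806475-123811760 and Ccr2 at chr9:124101950-124113557, all on the plus strand. Cxcr6 and Ccr2 are 290.2 kb apart in the chemokine receptor cluster. Cxcr3 lies at chrX:101731535-101734269 and Cxcr4 at chr1:128588199-128592293, both on the minus strand. The 250 bases upstream of the RefSeq start are shown for Cxcr6 and Ccr8, the pair that moved in opposite directions between Foxp3-detected and Foxp3-undetected CD4 cells, and for Cxcr3, which shares a motif match with Cxcr6. The windows are chr9:123806227-123806476, chr9:120091883-120092132 and chrX:101734148-101734397 in GRCm38.p6, each printed 5′ to 3′ on the strand of its gene, with capitals marking a match to the RUNX motif TGTGGT on either strand.
Cxcr6: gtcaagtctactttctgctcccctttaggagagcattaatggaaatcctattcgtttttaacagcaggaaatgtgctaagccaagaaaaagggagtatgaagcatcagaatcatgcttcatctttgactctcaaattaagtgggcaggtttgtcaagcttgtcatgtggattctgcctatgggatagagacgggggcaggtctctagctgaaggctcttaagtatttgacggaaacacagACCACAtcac
Ccr8: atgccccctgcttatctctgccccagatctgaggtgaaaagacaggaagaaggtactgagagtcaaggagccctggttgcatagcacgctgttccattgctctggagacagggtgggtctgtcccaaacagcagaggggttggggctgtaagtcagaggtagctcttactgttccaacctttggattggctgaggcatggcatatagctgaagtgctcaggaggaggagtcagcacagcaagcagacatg
Cxcr3: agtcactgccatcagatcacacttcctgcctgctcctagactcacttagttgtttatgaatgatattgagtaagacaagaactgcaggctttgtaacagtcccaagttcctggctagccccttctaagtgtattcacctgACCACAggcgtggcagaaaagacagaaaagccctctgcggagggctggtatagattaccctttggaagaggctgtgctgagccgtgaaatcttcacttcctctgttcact
The RUNX match began 10 bases upstream of the Cxcr6 RefSeq start and 110 bases upstream of the Cxcr3 RefSeq start. None was found for Ccr8, Ccr2 or Cxcr4. The gene spans given above come from another annotation. The Cxcr3 window overlaps the Cxcr3 span, and the Cxcr3 match lies within that span. The Ccr2 window (chr9:124101933-124102182) lies almost wholly within the Ccr2 span, and the Ccr8 and Cxcr6 windows overlap the first bases of theirs. Among 32851 RefSeq promoter windows of the same length, 4614 held this motif. STAT (TTCNNNGAA, in 7.02% of windows), forkhead (TGTTTAC, 3.17%) and T-box (TCACACC, 3.33%) motifs had no match in any of the 5 members, and TATAAA (12.4%) matched in Cxcr4 only, at 2 overlapping positions. A match describes letters in the window and does not show binding.

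Cxcr6 had the highest median level of the 5 receptors in the cells that had it, apart from the CD4 plate labelled knockout, where Cxcr3 was as high. On the wild-type CD8 plate 61.1% of cells (44 of 72) had it, and on the CD8 plate labelled knockout 46.8% (36 of 77). The wild-type CD4 plate had 32.4% (24 of 74) and the CD4 plate labelled knockout 35.9% (28 of 78). The exact binomial 95% interval of these shares ran from 48.9 to 72.4% on the wild-type CD8 plate and from 25.3 to 47.6% on the CD4 plate labelled knockout, and covers counting error only. Among cells with detection the median level was 1648 FPKM, 1219 FPKM, 1134 FPKM and 743 FPKM in the same order, and the highest cell had 6266 FPKM. The population libraries held 1681, 976, 228.8 and 770 FPKM. Both CD8 plates lay above both CD4 plates in share of cells and in the population library, where fewer cells with a receptor and less RNA per cell cannot be told apart. A cell usually either had Cxcr6 at a high level or did not have it, since 3.79% of its detections were below 10 FPKM.

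**Figure D1:**
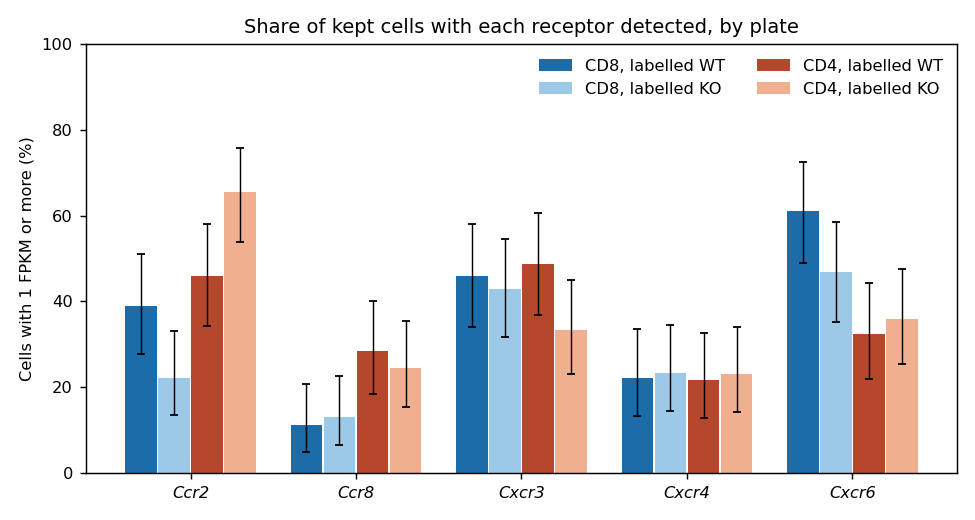
Share of kept cells (percent, vertical axis) with each receptor at 1 FPKM or more on the 4 plates, with exact binomial 95% intervals as error bars (counting error only). Cxcr6 is highest on the wild-type CD8 plate at 61.1%, Ccr2 on the CD4 plate labelled knockout at 65.4%, and Cxcr4 lies between 21.6% and 23.4% on every plate.

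The share of cells with Ccr2 was 38.9% on the wild-type and 22.1% on the labelled-knockout CD8 plate, and 45.9% and 65.4% on the CD4 plates in the same order. Its median among cells with detection was 137.1, 230.6, 378.02 and 695 FPKM, and the population libraries held 155.9, 103.2, 454 and 784 FPKM. The order of the plates was the same by share and by population library, with the 2 CD4 plates above the 2 CD8 plates. Besides the 130 cells with Ccr2, a further 32 cells carried it at a value above 0 and below 1 FPKM. Chemokine receptor genes are related in sequence, so Ccr2 values are uncertain where fragments fit more than a single gene.

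Ccr8 was the least often detected of the 5 on the CD8 plates. There it was found in 11.1% (8 of 72) of wild-type cells and 12.99% (10 of 77) of CD8 cells labelled knockout, and in 28.4% (21 of 74) and 24.4% (19 of 78) of the CD4 cells. The median level in cells with Ccr8 was 117.9 and 270.6 FPKM on the CD8 plates and 496 and 519 FPKM on the CD4 plates. The population library of the wild-type CD8 plate held 39.5 FPKM, that of the CD8 plate labelled knockout 294.7 FPKM, and the CD4 populations 461 and 633 FPKM. Both measures placed the CD4 plates above the CD8 plates.

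Cxcr3 was found in 45.8% of wild-type and 42.9% of labelled-knockout CD8 cells, and in 48.6% and 33.3% of the CD4 cells. The median in cells with detection was 412 and 459 FPKM on the CD8 plates against 901 and 747 FPKM on the CD4 plates. The population libraries held 315.85, 387, 1327 and 715 FPKM. The level per detecting cell was higher on both CD4 plates, whereas the share was highest on the wild-type CD4 plate and lowest on the CD4 plate labelled knockout.

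Cxcr4 was found in 22.2%, 23.4%, 21.6% and 23.1% of the cells of the 4 plates, yet at low levels. Of its 68 detections, 52.9% were below 10 FPKM, the median was 8.21 FPKM and the highest value 254.3 FPKM. At 10 FPKM or more the shares were 13.9%, 7.79%, 6.76% and 14.1%. Low values in this table need care, since Cxcr2, a receptor of neutrophils, was listed at 1 FPKM or more in 95.7% of the kept cells at a median of 6.99 FPKM. In the population libraries Cxcr4 had 15.3, 19.9, 2.95 and 12.4 FPKM, the lowest of the 5 receptors on every plate.

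By the mean over cells of log2(FPKM + 1), which joins the share of cells and the level, the receptors ran Cxcr6 (6.16), Cxcr3 (3.77), Ccr2 (2.56), Cxcr4 (1.19) and Ccr8 (0.75) on the wild-type CD8 plate. On the CD8 plate labelled knockout the values were 4.51, 3.66, 1.61, 0.80 and 1.05 in the same sequence of genes. The wild-type CD4 plate ran Cxcr3 (4.50), Ccr2 (3.53), Cxcr6 (3.09), Ccr8 (2.56) and Cxcr4 (0.65), and the CD4 plate labelled knockout Ccr2 (5.43), Cxcr6 (3.29), Cxcr3 (3.03), Ccr8 (2.15) and Cxcr4 (0.91). The SD over cells within a plate was large, for example 5.18 for Cxcr6 on the wild-type CD8 plate, because most receptors were either at 0 or high in a cell. Cxcr6 and Cxcr3 on the CD4 plate labelled knockout lay well within that spread of each other.

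Ccr2 and Ccr8 were higher and Cxcr6 lower on the CD4 plates, by limma on the 4 plate means with source as a block. Ccr2 rose by 2.40 log2 (SE 0.50, adjusted p = 0.000251, limma), from 2.56 and 1.61 to 3.53 and 5.43. Ccr8 rose by 1.45 log2 (SE 0.38, adjusted p = 0.00608, limma), from 0.75 and 1.05 to 2.56 and 2.15. Cxcr6 fell by 2.14 log2 (SE 0.55, adjusted p = 0.00537, limma), from 6.16 and 4.51 to 3.09 and 3.29. The 2 CD4 means did not overlap the 2 CD8 means for any of these 3. This adds no support, since the calls rest on the same 4 means, and the share over all genes was not counted. Cxcr3 differed by 0.05 (adjusted p = 0.973, limma) and Cxcr4 by -0.22 (adjusted p = 0.722, limma). These 3 of 5 calls stand against 7.44% of 8427 genes called in either direction, 1.12% higher and 6.32% lower, and a median difference of all genes of -0.27. With 1 residual degree of freedom, the spread comes from all genes together. Without the block the adjusted p was 0.0827 for Ccr2, 0.0788 for Ccr8 and 0.115 for Cxcr6 in limma, and 0.831% of genes were called. Fits that left out 1 plate could carry no block either. Leaving out the CD8 plate labelled knockout ended the Ccr2 call (1.92, adjusted p = 0.0821, limma), as did leaving out the CD4 plate labelled knockout (1.45, adjusted p = 0.631, limma). The Ccr8 and Cxcr6 calls held only when the CD8 plate labelled knockout was the one left out, and were lost without each of the other 3 plates, with adjusted p of 0.154 to 0.377 for Ccr8 and 0.259 to 0.463 for Cxcr6 in limma.

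All 3 differences were smaller and lost their call with the Foxp3-detected CD4 cells left out, an alternative added after the data were seen. The CD4 minus CD8 difference of Cxcr6 was then -0.35 (adjusted p = 0.810, limma), that of Ccr8 0.70 (adjusted p = 0.287, limma) and that of Ccr2 1.597 (adjusted p = 0.108, limma). The mean of Cxcr6 in Foxp3-undetected CD4 cells was 4.87 in the wild-type and 5.10 in the plate labelled knockout, between the 2 CD8 plates at 6.16 and 4.51.

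Foxp3-detected CD4 cells had little Cxcr6. It was detected in 0 of 27 such cells on the wild-type plate, which by the exact interval allows up to 12.8%, and in 5 of 37 (13.5%) on the plate labelled knockout. In Foxp3-undetected CD4 cells it was found in 24 of 47 (51.1%) and 23 of 41 (56.1%). The mean was lower in Foxp3-detected cells by 4.34 log2 (SE 0.60, adjusted p = 7.1e-10, limma on the 4 means of plate by Foxp3 detection), with differences of -4.87 and -3.82 on the 2 plates. Foxp3-detected cells were not the shallower ones on the wild-type plate and about as deep on the other: they had a median of 2316 and 2076 detected genes and the others 1966 and 2095. The 5 cells with both genes carried Foxp3 at 911 to 1780 FPKM and Cxcr6 at 77.5 to 4434 FPKM. Read the other way, 0 of 24 and 5 of 28 cells with Cxcr6 had Foxp3, against 27 of 50 and 32 of 50 cells without it.

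Ccr8 went the other way. It was detected in 14 of 27 (51.9%) Foxp3-detected and 7 of 47 (14.9%) Foxp3-undetected wild-type CD4 cells, and in 10 of 37 (27.03%) and 9 of 41 (21.95%) on the plate labelled knockout. The rise was 2.00 log2 (SE 0.58, adjusted p = 0.0258, limma), made of 3.50 on the wild-type plate and 0.49 on the other, so most of it came from 1 plate. Without the block the adjusted p was 0.296 in limma. Ccr8 was not limited to Foxp3-detected cells: 7 of 21 and 9 of 19 CD4 cells with Ccr8 had no Foxp3.

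Ccr2 was found in 59.3% of Foxp3-detected against 38.3% of Foxp3-undetected wild-type CD4 cells, and in 70.3% against 60.98% on the plate labelled knockout. Its mean was 1.92 log2 higher (SE 0.69, adjusted p = 0.115, limma), with 1.96 and 1.88 on the 2 plates, and did not pass the test. Cxcr3 differed by -0.38 (adjusted p = 0.872, limma), with -0.92 and 0.15 on the plates, and Cxcr4 by -0.07 (adjusted p = 0.966, limma). Of 8277 genes tested between these classes 2.96% were called, 2.44% higher and 0.52% lower, and 2 of the 5 receptors were. All 5 other regulatory T cell markers tested (Il2ra, Ikzf2, Ctla4, Tnfrsf4 and Tnfrsf18) were higher in the Foxp3-detected cells.

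**Figure D2:**
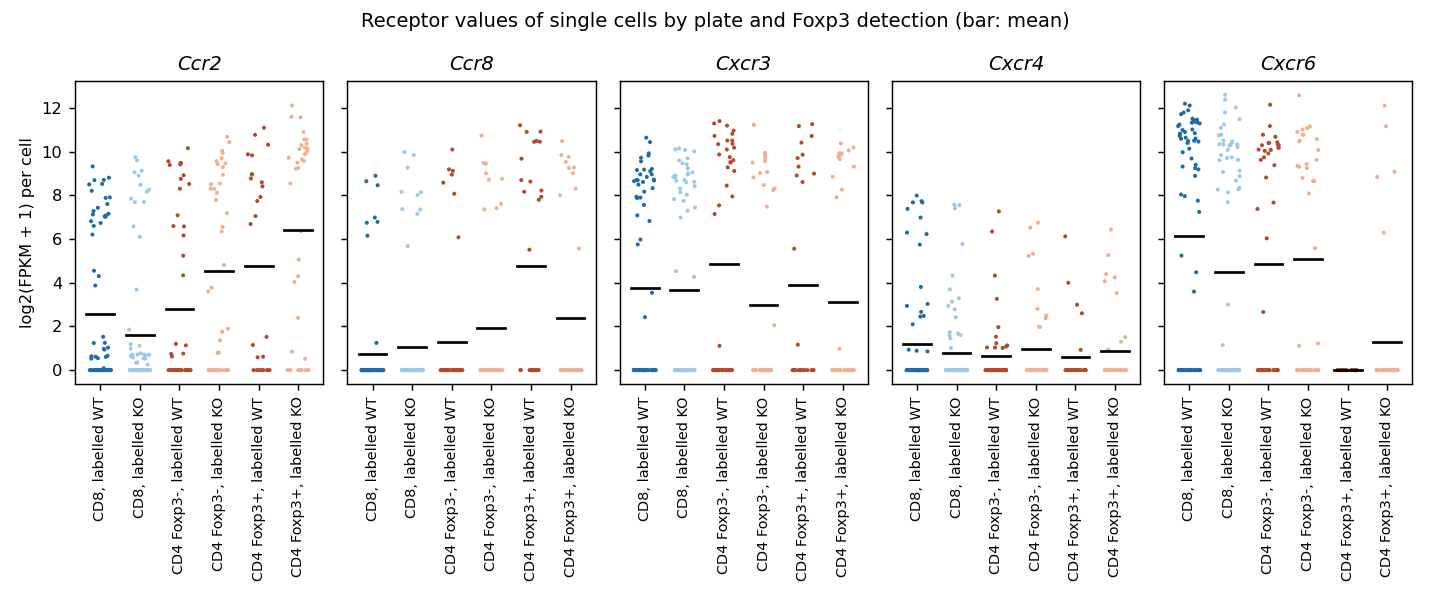
Value of each receptor in every kept cell as log2(FPKM + 1) (vertical axis), by plate and, for CD4 cells, by Foxp3 detection; black bars are class means. Cxcr6 is at 0 in all 27 Foxp3-detected wild-type CD4 cells, whereas its class means outside Foxp3-detected CD4 cells lie between 4.51 and 6.16.

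Ccr8 and Cxcr6 differed in direction between the Foxp3 classes, yet outside Foxp3-detected CD4 cells most cells with Ccr8 also had Cxcr6. The reverse did not hold: Ccr8 was present in 8 of 44 and 8 of 36 CD8 cells with Cxcr6, and in 6 of 24 and 8 of 23 Foxp3-undetected CD4 cells with Cxcr6. Among wild-type CD8 cells Cxcr6 was present in 8 of 8 with Ccr8 against 36 of 64 (56.2%) without it, and in 8 of 10 (80%) against 28 of 67 (41.8%) of the CD8 cells labelled knockout. In Foxp3-undetected CD4 cells it was detected in 6 of 7 (85.7%) against 18 of 40 (45%) on the wild-type plate and in 8 of 9 (88.9%) against 15 of 32 (46.9%) on the other. In Foxp3-detected cells the counts were 0 of 14 against 0 of 13, and 2 of 10 against 3 of 27. The share was thus higher in cells with Ccr8 on both CD8 plates and in Foxp3-undetected CD4 cells of both plates. These 4 classes had 7 to 10 cells with Ccr8 each, and the CD8 plates were not split by Foxp3. Among cells of 2000 or more detected genes it was 100% against 70% and 71.4% against 39.6% on the CD8 plates. In the Foxp3-undetected CD4 cells of that depth, only 1 wild-type cell had Ccr8, and on the plate labelled knockout the shares were 85.7% against 56.2%. Cells of 1 plate are not replicates, so no test was made.

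**Figure D3:**
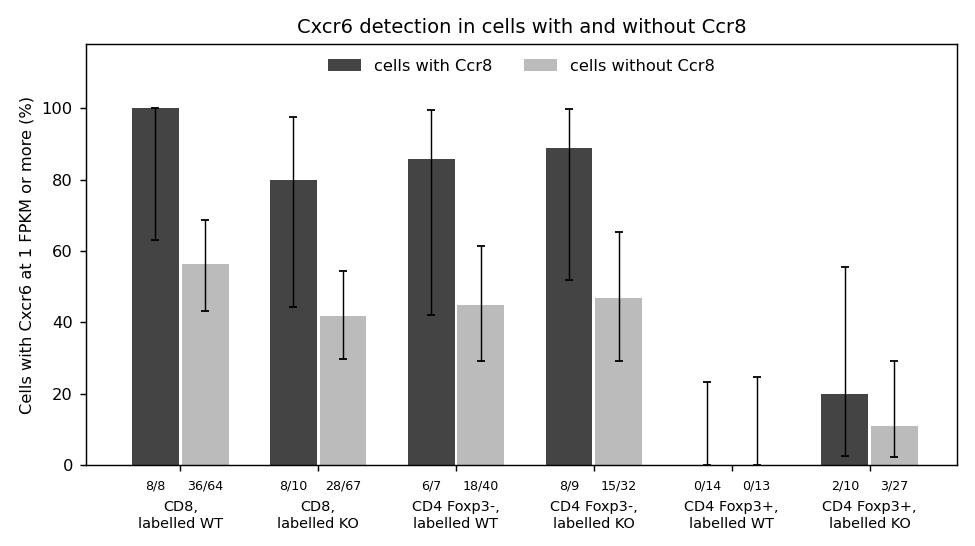
Share of cells with Cxcr6 (percent, vertical axis) among cells with and without Ccr8 in 6 classes of cells, with exact binomial 95% intervals and the cell counts under each bar. In the 4 classes other than Foxp3-detected CD4 cells the share is 80% to 100% with Ccr8 and 41.8% to 56.2% without it.

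Ccr8 and Cxcr3 were found together in 11 CD4 cells labelled knockout, where the product of their shares gives 6.33 cells, and Cxcr3 was seen in 57.9% of the cells with Ccr8 and 25.4% of those without. On the wild-type CD4 plate both were found in 13 cells against a product of 10.2 cells, and on each CD8 plate in 3 cells against products of 3.67 and 4.29 cells. Cxcr3 was also more frequent with Ccr8 in Foxp3-detected cells. The shares were 57.1% against 30.8% on the wild-type plate and 60% against 22.2% on the plate labelled knockout. Ccr2 and Cxcr3 were found together in 22 CD4 cells labelled knockout, where the product of their shares gives 17 cells, and Cxcr3 was detected in 43.1% of the cells with Ccr2 and 14.8% of those without. On the other 3 plates both were found in 15, 8 and 19 cells, against products of 12.8, 7.29 and 16.5 cells. Ccr2 and Cxcr6 were found together in 21 wild-type CD8 cells against a product of 17.1 cells, and in 8 against 7.95 on the CD8 plate labelled knockout. Per cell, 0 of the 5 receptors were detected in 15.3%, 14.3%, 14.9% and 15.4% of the cells of the 4 plates. The mean number was 1.79, 1.48, 1.77 and 1.82. A single wild-type CD8 cell and 2 CD4 cells labelled knockout had all 5. On the wild-type CD8 plate the median number of detected genes was 1665 in cells with none of the receptors and 2860 in cells with 3, so co-detection there moved with depth, and the part of depth in it was not tested.

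In wild-type CD8 cells Cxcr6 followed Pdcd1 and Havcr2, which encode the inhibitory receptors PD-1 and TIM-3. It was detected in 41 of 45 (91.1%) cells with Pdcd1 and 3 of 27 (11.1%) without, and in 31 of 33 (93.9%) cells with Havcr2 and 13 of 39 (33.3%) without. On the CD8 plate labelled knockout the shares were 15 of 25 (60%) against 21 of 52 (40.4%) for Pdcd1, and 6 of 9 (66.7%) against 30 of 68 (44.1%) for Havcr2. Wild-type CD8 cells with Pdcd1 were deeper, with a median of 2944 against 2071 detected genes. Among cells of 2000 or more detected genes the shares were 40 of 42 (95.2%) against 3 of 16 (18.8%). The split by Pdcd1 was not seen over all CD4 cells of a plate. There Cxcr6 was detected in 32% with and 32.7% without Pdcd1 on the wild-type plate and in 36.8% and 35.6% on the other. These shares join Foxp3-detected cells, which had little Cxcr6, with Foxp3-undetected cells, and the split within each class is not given here. Whether the genotypes differ in the split of Cxcr6 by Pdcd1 was not tested, with 1 plate each.

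Tcf7, a transcription factor of naive and stem-like T cells, ran against Cxcr6 in CD8 cells. On the wild-type CD8 plate Cxcr6 was seen in 6 of 19 (31.6%) cells with Tcf7 and 38 of 53 (71.7%) without, and in 17 of 47 (36.2%) and 19 of 30 (63.3%) on the plate labelled knockout. The depth of these classes differed little on the second plate, with medians of 2249 and 2243 genes. For Cxcr3 the wild-type CD8 plate had the opposite order, 13 of 19 (68.4%) with Tcf7 and 20 of 53 (37.7%) without, and the plate labelled knockout had 46.8% and 36.7%. Itgae, an integrin chain of resident T cells, was seen in 0 of 72 wild-type CD8 cells and in 8 CD8 cells labelled knockout, 7 of which had Cxcr6.

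**Figure D4:**
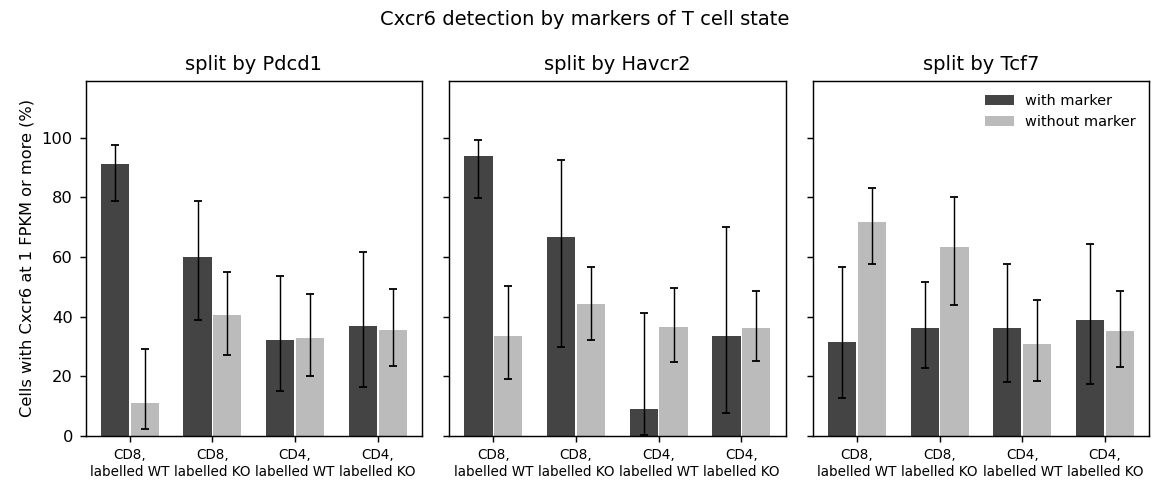
Share of cells with Cxcr6 (percent, vertical axis) among cells with and without Pdcd1, Havcr2 or Tcf7 on the 4 plates, with exact binomial 95% intervals. The widest gap is on the wild-type CD8 plate, 91.1% with and 11.1% without Pdcd1. On the CD4 plates, with Foxp3-detected and Foxp3-undetected cells joined, the Pdcd1 bars are within 1 interval of each other.

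Ccr8 was more often found with markers of activated and regulatory cells on the wild-type CD4 plate. It was detected in 13 of 20 (65%) cells with Il2ra, a chain of the IL-2 receptor, and 8 of 54 (14.8%) without, and in 14 of 29 (48.3%) cells with Tnfrsf4 (OX40) and 7 of 45 (15.6%) without. On the CD4 plate labelled knockout the shares were 26.2% and 22.2% for both splits. On the wild-type CD4 plate 19 of the 20 cells with Il2ra and 23 of the 29 with Tnfrsf4 were Foxp3-detected. These splits thus largely overlap the Foxp3 split there. On the CD8 plates Ccr8 was detected in 4 of 11 and 5 of 13 cells with Tnfrsf4, against 4 of 61 and 5 of 64 without. Those CD8 cells with Tnfrsf4 were deep, with medians of 4162 and 3235 detected genes against 2428 and 2204.5.

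Cxcr3 was detected in 10 of 16 (62.5%) CD4 cells labelled knockout with Tbx21, the transcription factor of type 1 T cells, and 16 of 62 (25.8%) without, whereas the other plates had 53.8% against 45.8% (wild-type CD4), 45.5% against 46.2% (wild-type CD8) and 39.4% against 45.5% (CD8 labelled knockout). Ifng made little difference to Cxcr3 on the CD8 plates, at 40% with against 48.1% without and 42.1% against 43.1%. Cxcr4 was more often found with S1pr1, the receptor that guides T cells out of tissue, on 2 plates: 9 of 21 (42.9%) against 7 of 51 (13.7%) in wild-type CD8 cells and 12 of 39 (30.8%) against 4 of 35 (11.4%) in wild-type CD4 cells. The plates labelled knockout had 26.8% against 19.4% and 23.4% against 22.6%. These Cxcr4 counts are at 1 FPKM or more. Of the 16 detections on each wild-type plate, 10 in CD8 and 5 in CD4 cells reached 10 FPKM. The depth of the cells with and without S1pr1 is not given here. In wild-type cells Ccr2 was less often found with Il7r, a chain of the IL-7 receptor, at 3 of 15 (20%) against 25 of 57 (43.9%) in CD8 cells and 16 of 45 (35.6%) against 18 of 29 (62.1%) in CD4 cells. The plates labelled knockout had 10 of 53 (18.9%) against 7 of 24 (29.2%) in CD8 cells and 66.04% against 64% in CD4 cells.

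Some of the genes whose values across cells were most like a member are given as a description. They were ranked among about 3014 genes by the mean over 4 plates of the within-plate Spearman correlation over kept cells. The cells share plate and depth within each value. For Cxcr6 these were Itgb1 (0.41), Nkg7 (0.40) and Id2 (0.39), for Ccr2 Gzmb (0.41) and Ahnak (0.33), and for Ccr8 Dusp4 (0.36), Gapdh (0.35) and Samsn1 (0.35). Single plates varied. With Cxcr6, Nkg7 had 0.67 and Id2 0.64 on the wild-type CD8 plate, but 0.12 and 0.09 on the wild-type CD4 plate. The closest genes to Cxcr3 (Ifngr1, 0.30) and Cxcr4 (Rnf125, 0.24) were weak.

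The genotype labels were compared as single plates, with no test. On the CD8 plates Cxcr6 differed by -1.65 log2 in cells labelled knockout minus wild type, Ccr2 by -0.95, Cxcr4 by -0.39, Cxcr3 by -0.11 and Ccr8 by 0.30, where the median of all genes was -0.22. On the CD4 plates Ccr2 differed by 1.89, Cxcr4 by 0.26, Cxcr6 by 0.20, Ccr8 by -0.41 and Cxcr3 by -1.47, with an all-gene median of -0.04. Past 1 log2 in size there was 1 of 5 members on the CD8 plates (lower), against 11.3% of 8117 genes, 2.07% higher and 9.19% lower. On the CD4 plates there were 2 of 5 (1 higher, 1 lower), against 5.04% of 7063 genes, 2.53% higher and 2.51% lower. The population libraries had the same sign for Ccr2 (-0.59 and 0.79), for Cxcr6 (-0.78 and 1.75) and for Cxcr3 on the CD4 plates (-0.89). They differed in sign for Ccr8 on the CD4 plates (0.46), for Cxcr3 (0.29) and Cxcr4 (0.36) on the CD8 plates. Ccr8 in the CD8 population libraries differed by 2.87, far more than the 0.30 over cells. Cells holding RNA of another cell type, as defined below with Tyr and Pecam1 not counted, were more frequent on the wild-type plates. They made up 20.8% against 6.49% of CD8 cells and 16.2% against 3.85% of CD4 cells. With them left out, Cxcr6 differed by -2.08 on the CD8 plates, and Ccr2 by 2.12 and Cxcr3 by -1.68 on the CD4 plates.

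**Figure D5:**
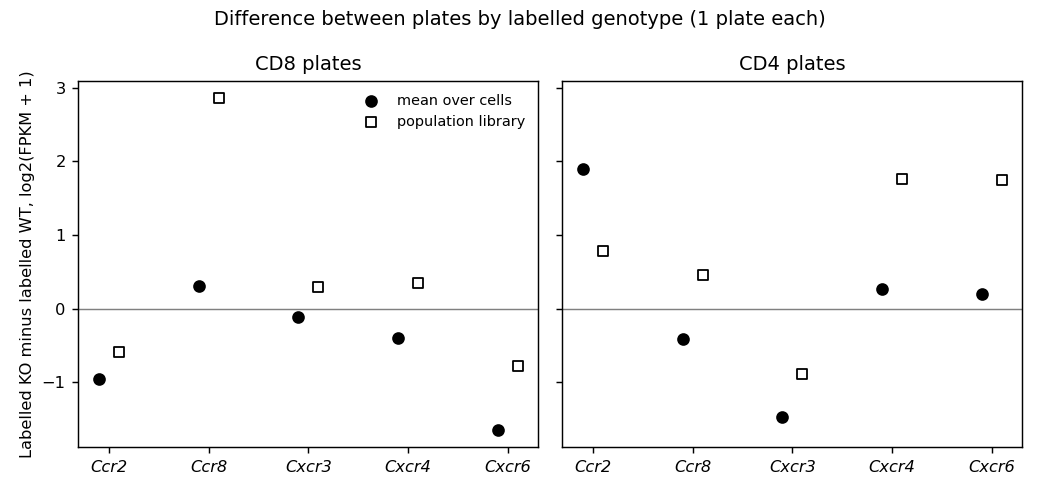
Difference of the plate labelled knockout minus the wild-type plate in log2(FPKM + 1) (vertical axis) for each receptor, as the mean over cells (filled circles) and in the single population library (open squares), for CD8 and CD4 plates. Cells and population libraries agree in sign for Ccr2 and Cxcr6 on both, and Ccr8 on the CD8 plates has the widest gap between the 2 measures, 0.30 against 2.87.

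Myeloid cells also express Ccr2, and at least 1 of 9 myeloid markers was seen in 10 of 34 (29.4%) wild-type CD4 cells with Ccr2 and 2 of 40 (5.00%) without, and in 12 of 51 (23.5%) and 4 of 27 (14.8%) on the plate labelled knockout. On the CD8 plates the order was the opposite, 4 of 28 against 13 of 44 and 3 of 17 against 13 of 60. The summed level of the 9 markers had a median of 0 FPKM on every plate and reached 91410 FPKM in 1 wild-type CD4 cell. C1qa was at 0 on 3 of the 4 plates and detected on the wild-type CD4 plate. A myeloid marker was seen in 16.2 to 23.6% of the cells of a plate. At least 1 melanoma marker was listed in 97.4 to 100% of the cells of a plate, mostly Tyr at a median of 8.06 FPKM, a B cell marker in 2.56 to 7.79%, an NK cell marker in 1.35 to 11.1% and a stromal or endothelial marker in 16.7 to 27.03%. Ms4a1, which defines B cells, and Ncr1, which defines NK cells, were at 0 in every kept cell, while the population library of the CD4 plate labelled knockout held 12.61 FPKM of Ncr1 and that of the wild-type CD8 plate 0.79 FPKM of Ms4a1. In limma, none of the 3 melanoma, 2 myeloid and 1 stromal genes tested was called between CD4 and CD8 plates, nor any of 3, 3 and 1 between the Foxp3 classes, and no B or NK cell gene passed the filter. Of the T cell lists, Cd8a, Cd8b1 and Cd3d were lower and Cd4, Foxp3, Il2ra, Tnfrsf4 and Tnfrsf18 higher on the CD4 plates, and none of the 4 CD4 and 4 CD8 list genes tested was called between the Foxp3 classes. Cd8a, Cd4 and Foxp3 passed the filter on detection only through the plates where they were high, which fixed their direction. With all cells holding RNA of another cell type left out, the Ccr2 difference between CD4 and CD8 plates was 2.28 log2 and lost its call (adjusted p = 0.203, limma). Such cells were defined as having 2 or more melanoma, myeloid, B cell or stromal markers, or the other plates' lineage gene, Cd4 or Cd8a. With Tyr counted, this set aside 52.8% and 50.6% of the CD8 cells and 50% and 43.6% of the CD4 cells, wild type first. With Tyr and Pecam1 not counted, an alternative chosen after the data were seen, the rule set aside 3.85 to 20.8% of cells per plate. The Ccr2 difference was then 2.25 log2 and kept its call (adjusted p = 0.0383, limma).

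Among 14 other chemokine receptors, 8 were tested between CD4 and CD8 plates and 3 were called in limma, against 7.44% of all genes. Each of the 3 passed the filter (detection in at least 10% of the cells of a class) only through the plates where it was high, which fixed the direction, so their shares are given as a description. Ccr4, a receptor of helper and regulatory T cells, was seen in 0% and 7.79% of the CD8 cells and 20.3% and 43.6% of the CD4 cells, in the order wild type and labelled knockout. Ccr3 was seen in 1.39% and 0% of the CD8 cells and 2.70% and 14.1% of the CD4 cells. Cx3cr1, a receptor of cytotoxic effector cells, was seen in 22.2% and 14.3% of the CD8 cells and 6.76% and 3.85% of the CD4 cells. Between the Foxp3 classes 3 of 8 were called, all higher in Foxp3-detected cells, against 2.96% of all genes called. Among them Ccrl2 and Ccr3 passed the filter only through Foxp3-detected cells. Ccrl2 was seen in 51.9% and 21.6% of Foxp3-detected and 2.13% and 4.88% of Foxp3-undetected cells, and Ccr3 in 7.41% and 29.7% against 0 of 88 cells. Past 1 log2 between genotype labels were 2 of 6 genes on the CD8 plates, against 11.3% of all genes, among them Ccr7 (higher). On the CD4 plates there were 2 of 7, against 5.04%, Ccr3 and Ccr4 (both higher). Of these, Ccr3 passed the filter only through the CD4 plate labelled knockout, which fixed its direction. Of the 4 atypical receptors none passed the filter on detection.

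Of 10 ligand genes of the members, 2 passed the filter (Cxcl10 and Cxcl11). Neither was called between CD4 and CD8 plates in limma. Cxcl10 passed the filter between the Foxp3 classes only through Foxp3-detected cells, where it was seen in 14.8% and 18.9% of cells, against 0% and 4.88% of Foxp3-undetected cells. Cxcl12, the ligand of Cxcr4, was detected in 0 of the kept cells and Cxcl16, the ligand of Cxcr6, in 1.30 to 4.05% per plate. Ccl1, the ligand of Ccr8, was seen in 5.56% and 5.19% of the CD8 cells, and its population libraries held 174.5 and 1688 FPKM on the CD8 plates.

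Of 18 G proteins, kinases, arrestins and RGS proteins, 16 were tested and 2 were lower on the CD4 plates, Rgs16 (-2.26 log2) and Rgs3 (-1.42 log2), against 6.32% of all genes called lower. None was called between the Foxp3 classes. Of 17 effectors of migration 16 were tested and 1 was lower, Pik3r5 (-1.68 log2), a share near that of all genes, and none of 17 was called between the Foxp3 classes. Of 10 other trafficking receptors tested, 2 were higher on the CD4 plates, Itgb7 (3.94 log2) and Itgae (1.21 log2), against 1.12% of all genes called higher. In Foxp3-detected cells 3 of the 10 were lower, Itgb1 (-3.61 log2), S1pr1 (-2.75 log2) and Gpr183 (-2.12 log2), against 0.52% of all genes called lower. Itgae passed the filter there only through Foxp3-detected cells, at 37.04% and 43.2% of cells against 4.26% and 2.44%. The medians of these 3 lists between CD4 and CD8 plates were -0.38, -0.24 and 0.06, against -0.27 over all genes, and between the Foxp3 classes 0.36, 0.25 and -0.07 against 0.17. On the CD8 plates 15, 16 and 10 genes of these lists passed the filter. Past 1 log2 in the plate labelled knockout were 1 higher and 5 lower of the first, 0 and 2 of the second and 5 and 0 of the third, against 2.07% of all genes higher and 9.19% lower. On the CD4 plates, of 16, 16 and 10 genes, they were 0 higher and 1 lower, 1 and 1, and 3 and 0, against 2.53% and 2.51% of all genes.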

How the data were processed

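The deposited table holds FPKM values for 23420 genes and 384 wells, TMM-normalised by the authors. Per the submitters' processing notes, reads were handled with Bowtie and RSEM on mm10. The sources used here give no versions or settings. By design, RSEM divides fragments shared by related genes. The table has no counts, so depth was described by detected genes, and log2 differences of low genes are understated. Plates were read from sample titles. The members, lists and tests were chosen with earlier results of these data known.

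From the table, shares (exact Clopper-Pearson intervals), means of log2(FPKM + 1), co-detection and splits by state markers were computed with Python 3.11.15. Named genes were the members, their fixed markers, list genes detected in at least 10% of the cells of a plate, and the 3 genes most like each member. CD4 against CD8 plates, and Foxp3-detected against undetected CD4 cells, were tested with limma 3.58.1 in R 4.3.3 on 4 means, with source or plate as a block, trended eBayes and Benjamini-Hochberg adjustment over genes detected in at least 10% of the cells of a class. The block pairs plates that carry the same source name, or the 2 Foxp3 classes of 1 plate. Each fit has 1 residual degree of freedom, so p-values rest on the spread shared across genes. The fits were tested on simulated data. The cell type lists were CD8, CD4 and regulatory T cells, melanoma, myeloid, B, NK, and stromal and endothelial cells. Sequences are from RefSeq promoter windows of GRCm38.p6 and positions from GENCODE M21. No protein sequence was used. Values of some genes are not reported here.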

Additional observations from a re-analysis of the deposited data

Results flagged for a closer look

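For 4 of the receptors the difference between genotype labels (plate labelled knockout minus wild-type plate, mean log2(FPKM + 1) over cells) had opposite signs in CD8 and CD4 cells. It was -0.95 in CD8 and 1.89 in CD4 cells for Ccr2, and -1.65 and 0.20 for Cxcr6. It was 0.30 and -0.41 for Ccr8, and -0.39 and 0.26 for Cxcr4. Only Ccr2 kept opposite signs in every alternative run. Without cells holding RNA of another cell type, Cxcr6 was -0.97 in CD4 cells and Cxcr4 0.006 in CD8 cells. In cells of 2000 or more genes Ccr8 was 0.07 in CD4 cells. The population libraries, CD8 then CD4, had 2.87 and 0.46 for Ccr8 and 0.36 and 1.77 for Cxcr4. With 1 plate per genotype and cell type the difference between the cell types was not tested. Cxcr3 was lower in Foxp3-detected than in Foxp3-undetected cells on the wild-type CD4 plate (-0.92) and slightly higher on the plate labelled knockout (0.15). That difference was not tested either.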

How the results depend on the processing

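Directions of the receptors called in limma did not change under any alternative run, but most CD4 against CD8 calls were lost. Against 7.44% of genes called there, 7.03% were called with a pseudocount of 0.1, 1.98% with arithmetic means, 3.44% with genes in at least 25% of cells, 4.14% with no gene filter, 0.122% in cells of 2000 or more genes, 0.417% without cells holding RNA of another cell type, 0.831% with no replicate block and 0 genes in the population libraries (1066 at unadjusted p under 0.05, limma). With alternatives added after the data were seen, 2.40% were called without such cells, Tyr and Pecam1 not counted, and 3.10% without Foxp3-positive CD4 cells. Leaving out each plate gave 0.320 to 13.7%. Ccr2 lost its call with no replicate block (2.40), in deeper cells (2.77), without other-cell RNA (2.28), in the population libraries (2.22) and without Foxp3-positive cells (1.597), and ran from 1.45 to 3.35 on leaving out a plate. Ccr8 lost it in the same settings (1.45, 2.16, 1.39, 2.31 and 0.70) and with Tyr and Pecam1 not counted (1.42), and ran from 1.25 to 1.66. Cxcr6 lost it likewise (-2.14, -2.63, -1.80, -1.61, -0.35 and -2.13) and with arithmetic means (-1.02), and ran from -2.97 to -1.32. Against 2.96% of genes called between the Foxp3 classes, 0.314% were called with no replicate block, 0 genes with arithmetic means (758 at unadjusted p under 0.05, limma), 0.816% in deeper cells, 0.0476% without other-cell RNA, 6.11% with genes in at least 25% of cells, 1.25% with no gene filter and 0.462% with Foxp3 at 10 FPKM or more. Cxcr6 lost its call with arithmetic means (-5.47) and was -4.87 and -3.82 on single plates. Ccr8 lost it with no replicate block (2.00), arithmetic means (1.599), in deeper cells (3.50), without other-cell RNA (2.73) and with Foxp3 at 10 FPKM (2.06), and was 3.50 and 0.49 on single plates. The knockout minus wild type difference fell below 1 log2 for Cxcr6 in CD8 cells with arithmetic means (-0.65) and in population libraries (-0.78), and in population libraries for Ccr2 (0.79) and Cxcr3 (-0.89) in CD4 cells. The cause was not tested. Of 200 shares of cells recomputed, 17 left their interval. A lone plate left after leaving 1 out is assumed to vary like the rest.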

Other observations

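Counted as combinations of the 5 receptors, the 64 Foxp3-detected CD4 cells of both plates most often had Ccr2 alone (13 cells, 20.3%) or Ccr2 with Ccr8 and Cxcr3 (8 cells, 12.5%). The 88 Foxp3-undetected CD4 cells most often had none (15 cells, 17.05%), Ccr2 with Cxcr6 (10 cells, 11.4%) or Ccr2 with Cxcr3 and Cxcr6 (8 cells, 9.09%). Among wild-type CD8 cells Cxcr3 with Cxcr6 led (9 cells, 12.5%) after none, and among CD8 cells labelled knockout Cxcr6 alone (11 cells, 14.3%) and Cxcr3 alone (10 cells, 12.99%).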
